A study of Mus musculus with 6 samples.

Results

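The 10 genes described here encode the major histocompatibility complex (MHC) class II machinery of the mouse: the chains H2-Aa, H2-Ab1 and H2-Eb1, the invariant chain Cd74, the peptide editor chains H2-DMa, H2-DMb1 and H2-DMb2, the inhibitor chains H2-Oa and H2-Ob, and the transactivator Ciita. They were picked by symbol among the 47729 genes of the count tables, and 10 of 10 were found and passed the filter on low counts, as did 14625 genes in all. RNA was sequenced from lung endothelial cells (ECs) in 3 WT and 3 leene-KO libraries. KO mice lack, in every cell, the chromosome 14 region that corresponds to the human long noncoding RNA gene LEENE, and WT mice were their littermates on a C57BL6 background. All groups were male, were 14 weeks old per the labels, and received angiotensin II (AngII) at 1000 ng/kg/min for 2 weeks from an implanted pump, so no library shows the state without AngII. The labels describe cells of 3 mice pooled in a group and name CD31 for the enrichment, whereas the methods name CD144. The sources leave it unclear how many mice stand behind 1 library, and p-values measure only the spread between these libraries. The RNA of the deleted region was not analysed here.

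Class II molecules display peptides from engulfed or endosomal proteins to CD4+ T cells. An alpha and a beta chain are held in the endoplasmic reticulum by the invariant chain, which guides them to late endosomes and is cut down there to a fragment that fills the peptide groove. H2-DM, also called H2-M, exchanges that fragment for other peptides, and H2-DO, also called H2-O, holds H2-DM back, mostly in B cells. Ciita switches on these genes by binding to factors that sit on the X and Y boxes of their promoters. In the lung, class II genes are used by B cells, dendritic cells, macrophages and alveolar type II epithelium, and by some capillary ECs. In C57BL6 mice H2-Eb1 is transcribed, but its partner alpha chain is not, so that I-A, made of H2-Aa and H2-Ab1, is the class II molecule at the surface.

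The X and Y boxes are shown because they are the sequence that ties the members together. RefSeq promoter windows (GRCm38.p6, 300 bases) were at hand for 7 of the 10 members, H2-Aa, H2-Eb1, H2-DMa, H2-DMb1, H2-DMb2, H2-Oa and H2-Ob. GNAAC (for the X box) followed after 25 to 31 bases by ATTGG (for the Y box) was searched on both strands. The spacing was chosen after these promoters had been seen. It occurred in 5 of the 7, and in 1.25% of 32851 promoter windows, whereas ATTGG alone occurred in 37.4%. ATTGG lay 43 bases before the start in H2-Oa, 57 in H2-Ob, 48 in H2-Aa and 59 in H2-Eb1. In capitals are the 5 bases of each core, read along the strand of the gene, in the chain and inhibitor genes.
H2-Aa, chr17:34287867-34287919, minus strand: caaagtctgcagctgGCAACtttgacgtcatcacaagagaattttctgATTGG
H2-Eb1, chr17:34305761-34305812, plus strand: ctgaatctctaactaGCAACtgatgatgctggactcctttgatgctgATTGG
H2-Oa, chr17:34092288-34092340, plus strand: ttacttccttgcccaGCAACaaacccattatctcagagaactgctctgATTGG
H2-Ob, chr17:34238803-34238852, plus strand: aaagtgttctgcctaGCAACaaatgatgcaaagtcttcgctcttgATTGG

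The widely used H2-Aa and H2-Eb1 and the B cell genes H2-Oa and H2-Ob all met the search, which itself fixed ATTGG and all of GNAAC but the N. That free base was C in each of them. The near-copies H2-DMb1 and H2-DMb2 are shown as 30 bases from the place of the X core, in capitals.
H2-DMb1, chr17:34153097-34153126, plus strand: GTAACtgatgatgctaggctgattcactca
H2-DMb2, chr17:34145126-34145155, plus strand: TTAACcgatgatgctaggctaagtcactta
They matched at 25 of 30 bases, and the 5 substitutions from H2-DMb1 to H2-DMb2, counted from 1 at the first capital, were G1T, T6C, G21A, T23G and C29T. The first of them lies in the X core, so that H2-DMb2 was not found by the search, although ATTGG was present 90 bases before its RefSeq start, which lies 1942 bases inside the counted gene. The stretch shown for H2-DMb1 also lies inside its counted gene, which begins 119 bases before the RefSeq start. The RefSeq windows of H2-DMa held no match, and they lie 9664 and 12350 bases before the counted gene. A match is a description of the letters and says nothing about which factors were bound here.

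Total counts ranged from 24464324 to 35184063 per library, of which 37.4 to 54.5% fell on mitochondrially encoded genes (54.5% in WT replicate 3). The EC label was checked against 12 EC markers. Their summed level was 2212 to 3972 CPM (counts relative to the library size, which was scaled by edgeR's TMM method), and Erg, the highest by the mean over all 6 libraries, lay between 350.0 and 580 CPM. RNA of alveolar type II cells was present too, with 5428 to 50661 CPM over 8 markers. In every library this sum was above that of the EC markers, at 5428 against 2212 CPM in WT replicate 1 and 50661 against 2648 CPM in WT replicate 2. In bulk RNA, more cells of a type and more RNA per cell cannot be told apart.

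Across the members, 9 of 10 had a higher fitted level in KO, and Ciita was the exception. Their median log2 fold change was 0.87, that of all tested genes 0.03. No member passed an adjusted p of 0.05 in edgeR's quasi-likelihood test (0 of 10), and 0.109% of all tested genes did, namely 5 higher and 11 lower in KO. By unadjusted p under 0.05, 3 of 10 members were higher (H2-DMb2, H2-Oa and H2-Ob), against 5.62% of all tested genes. In the same 3 genes every KO library lay above every WT library, which held for 8.59% of all tested genes. DESeq2 called H2-DMb2 and H2-Ob higher, 2 of 10 members, against 0.601% of the genes it tested. edgeR's likelihood ratio test also called 2, and limma-voom called 0.

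**Figure D1:**
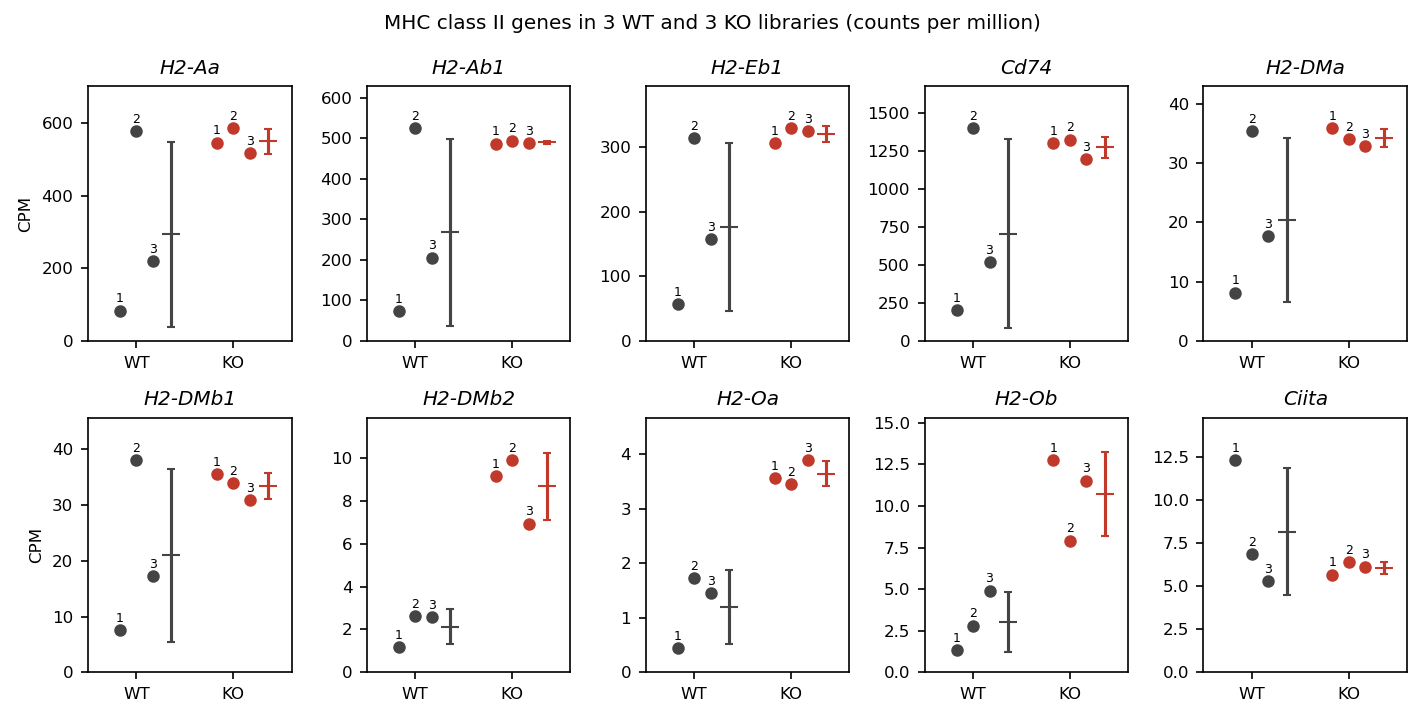
Level of each of the 10 class II genes in CPM (vertical axis, from 0) in the 3 WT libraries (grey) and the 3 KO libraries (red). The digit above a point is the replicate number, and the bar beside the points is the mean with the SD over 3 libraries. WT replicate 2 sits beside the KO libraries for H2-Aa to H2-DMb1, whereas all WT libraries sit below KO for H2-DMb2, H2-Oa and H2-Ob.

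The classical chains H2-Aa and H2-Ab1 form I-A, the surface molecule that carries the peptide. H2-Ab1 (ENSMUSG00000073421, GRCm38 chr17:34263209-34269418) measured 73.7 CPM in WT replicate 1, 524 in WT replicate 2 and 206 in WT replicate 3, against 487, 494 and 488 CPM in KO replicates 1 to 3. The KO libraries were nearly level, whereas WT ranged from far below KO in replicate 1 to above KO in replicate 2, so that the groups overlapped. Its log2 fold change was 0.87 with a standard error of 0.59 (adjusted p = 0.620). H2-Aa (ENSMUSG00000036594, chr17:34282744-34287827) measured 83.2, 577 and 220.0 CPM in the WT libraries and 546, 585 and 518 CPM in the KO libraries. It kept the same order of libraries in WT, and its log2 fold change was 0.90 ± 0.59 (SE, adjusted p = 0.609). H2-Eb1 (ENSMUSG00000060586, chr17:34305877-34316199), the beta chain without an alpha partner in this strain, measured 56.3, 314 and 157 CPM in the WT libraries and 306, 329 and 324 CPM in the KO libraries. Here too WT replicate 2 lay within the range of KO, with a log2 fold change of 0.86 ± 0.52 (SE, adjusted p = 0.583).

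Cd74 (ENSMUSG00000024610, chr18:60803848-60812646), the chaperone of the chains and the most abundant member, measured 201, 1397 and 517 CPM in the WT libraries and 1301, 1323 and 1194 CPM in the KO libraries. WT replicate 2 was the highest of all 6 libraries, and the log2 fold change of 0.85 ± 0.60 (SE, adjusted p = 0.631) was within the spread of WT.

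H2-DMa (ENSMUSG00000037649, chr17:34135182-34139101), the alpha chain of the peptide editor, measured 8.15, 35.4 and 17.7 CPM in the WT libraries and 35.8, 34.0 and 32.9 CPM in the KO libraries. H2-DMb1 (ENSMUSG00000079547, chr17:34153072-34160230), its usual beta chain, measured 7.56, 38.0 and 17.2 CPM in the WT libraries and 35.5, 33.8 and 30.8 CPM in the KO libraries. Both thus followed the classical chains, with WT replicate 2 beside the KO libraries. Their log2 fold changes were 0.75 ± 0.44 (SE, adjusted p = 0.581) for H2-DMa and 0.67 ± 0.49 (SE, adjusted p = 0.635) for H2-DMb1.

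H2-DMb2 (ENSMUSG00000037548, chr17:34143307-34151553), the second beta chain gene of the editor, behaved otherwise. It measured 1.175, 2.61 and 2.58 CPM in the WT libraries (48, 89 and 55 counts) and 9.15, 9.90 and 6.93 CPM in the KO libraries (213, 269 and 201 counts). All 3 KO libraries lay above all WT libraries, WT replicate 2 included. Its log2 fold change of 2.04 ± 0.33 (SE), the highest of the members, had an unadjusted p of 0.000294 and an adjusted p of 0.0978 in edgeR and an adjusted p of 4.5e-06 in DESeq2. Of the distinct 50-base stretches of its transcripts (50 bases is the read length) 75.2% occur in no other gene, and 77.4% of those of H2-DMb1. The shared stretches are mostly common to this pair, and reads that align to both were not counted, so that both levels are low estimates. With the counts of the pair summed, the log2 fold change was 0.87 (adjusted p = 0.550).

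H2-Oa (ENSMUSG00000024334, chr17:34092340-34095234) and H2-Ob (ENSMUSG00000041538, chr17:34238903-34245907), the alpha and beta chains of the inhibitor of the editor, were the lowest of the chains per length of transcript. H2-Ob measured 1.35, 2.82 and 4.92 CPM in the WT libraries (55, 96 and 105 counts) and 12.8, 7.91 and 11.5 CPM in the KO libraries (297, 215 and 334 counts). H2-Oa measured 0.441, 1.73 and 1.45 CPM in the WT libraries (18, 59 and 31 counts) and 3.57, 3.46 and 3.90 CPM in the KO libraries (83, 94 and 113 counts). In each the 3 KO libraries lay above the 3 WT libraries, and WT replicate 1 was the lowest, on few counts. H2-Ob had a log2 fold change of 1.86 ± 0.43 (SE), with an unadjusted p of 0.0029 and an adjusted p of 0.265 in edgeR, and an adjusted p of 0.00351 in DESeq2. H2-Oa had a log2 fold change of 1.61 ± 0.46 (SE), with an unadjusted p of 0.0089 and adjusted p-values of 0.343 in edgeR and 0.0577 in DESeq2.

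Ciita (ENSMUSG00000022504, chr16:10488178-10527564), the transactivator that the other members depend on, was the only member with a lower fitted level in KO. It measured 12.3, 6.87 and 5.29 CPM in the WT libraries (504, 234 and 113 counts) and 5.67, 6.40 and 6.14 CPM in the KO libraries (132, 174 and 178 counts). The library with the lowest class II chains, WT replicate 1, had the highest Ciita, and the other 5 libraries lay close together. The log2 fold change was -0.44 ± 0.30 (SE, adjusted p = 0.628), and it was -0.01 without WT replicate 1.

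**Figure D2:**
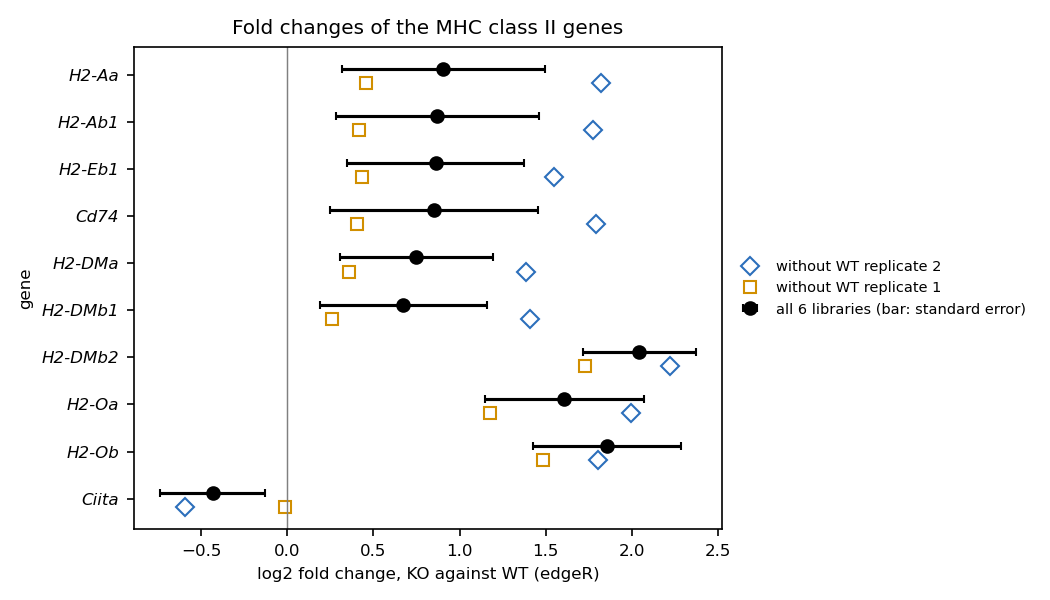
Log2 fold change of KO against WT (horizontal axis, edgeR) for each class II gene (vertical axis), from all 6 libraries (black, bar: standard error), without WT replicate 2 (blue diamonds) and without WT replicate 1 (orange squares). H2-DMb2, H2-Oa and H2-Ob stay above 1 in each, whereas H2-Aa to H2-DMb1 move between 0.26 and 1.82.

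Which WT libraries were kept set the size of the change in 6 members. Without WT replicate 2, which is closest to KO, 6 of 10 members passed an adjusted p of 0.05: H2-Aa (log2 fold change 1.82, adjusted p = 0.0405), H2-Ab1 (1.78, 0.0461), Cd74 (1.79, 0.0439), H2-DMa (1.39, 0.0409), H2-DMb1 (1.41, 0.0450) and H2-DMb2 (2.23, 0.0245). H2-Eb1 (1.55, adjusted p = 0.0628), H2-Oa (2.00, 0.0551) and H2-Ob (1.80, 0.0797) did not pass there. In that fit 791 genes in all were called, 660 higher and 131 lower in KO, against 16 in all with the 6 libraries. Calls thus rose outside the members too. The number of genes tested in that fit was not recorded (14625 with all 6 libraries), so the share of all genes is not given beside 6 of 10. Without WT replicate 1 the log2 fold changes of H2-Aa, H2-Ab1, H2-Eb1, Cd74, H2-DMa and H2-DMb1 were 0.26 to 0.46, and none passed. Those of H2-DMb2, H2-Oa and H2-Ob moved less, from 1.73 to 2.23, from 1.18 to 2.00 and from 1.48 to 2.36 over all single libraries left out.

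Levels between genes were compared as RPKM, which divides CPM by the exon length in kilobases. In KO, Cd74 was the highest at 903 ± 49.2 RPKM (SD, n = 3), followed by H2-Ab1 at 299 ± 2.33, H2-Aa at 293 ± 18.03 and H2-Eb1 at 270 ± 10.3. H2-Ab1 and H2-Aa did not differ beyond their spread. The editor came next, with H2-DMb1 at 22.5 ± 1.602 and H2-DMa at 20.9 ± 0.901 RPKM. Their SDs were wide beside this difference, but H2-DMa was the lower of the pair within each of the 6 libraries. H2-DMb2 at 5.06 ± 0.901, H2-Ob at 3.40 ± 0.800, H2-Oa at 2.77 ± 0.174 and Ciita at 1.16 ± 0.0701 RPKM followed, where H2-Ob and H2-Oa lay within their spread. In WT the ranges were wide, with Cd74 at 500.0 ± 440 RPKM, H2-Ab1 at 164 ± 141 and Ciita at 1.55 ± 0.704. The highest WT library exceeded the lowest by 4.34 to 7.12 times in H2-Aa, H2-Ab1, H2-Eb1, Cd74, H2-DMa and H2-DMb1, and the highest KO library exceeded the lowest by 1.01 to 1.15 times.

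The partner chains of I-A and of the editor stood in similar proportions in each library. Per length, H2-Aa stood at 0.927 to 1.03 times H2-Ab1, Cd74 at 2.84 to 3.17 times H2-Ab1, and H2-DMa at 0.842 to 0.975 times H2-DMb1 over the 6 libraries. The partners H2-Oa and H2-Ob varied more, with H2-Oa at 0.785, 1.47 and 0.708 times H2-Ob in WT and at 0.671, 1.05 and 0.812 times in KO, on low counts. Over the same 6 libraries, log2 CPM values of H2-Aa, H2-Ab1, H2-Eb1, Cd74, H2-DMa and H2-DMb1 correlated with each other at Pearson r of at least 0.99, those of H2-DMb2, H2-Oa and H2-Ob at 0.933 to 0.952, and those between these 2 sets at 0.720 to 0.936. Ciita correlated negatively with the first set (r of -0.785 to -0.728) and with the second (-0.800 to -0.673). These values rest on 6 points that share library and scaling among which WT replicate 1 stands apart.

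H2-DMb2 was higher in KO relative to its own near-copy. For every 100 H2-DMb1 reads there were 15.5, 6.88 and 14.99 H2-DMb2 reads in WT and 25.8, 29.3 and 22.5 in KO. The groups did not overlap, with means of 12.5 ± 4.85 and 25.9 ± 3.37 (SD, n = 3 each), a ratio of 2.08. With 3 libraries against 3, an exact permutation test cannot give a two-sided p below 0.1. Relative to H2-Oa, H2-DMa stood, per length, at 14.8, 16.3 and 9.74 times in WT and at 8.04, 7.87 and 6.75 times in KO, again without overlap.

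H2-Oa and H2-Ob were less clearly separated when set against the chains used in all class II cells. For every 100 H2-Ab1 reads there were 1.83, 0.538 and 2.39 H2-Ob reads in WT and 2.62, 1.601 and 2.36 in KO. For every 100 H2-Aa reads there were 0.530, 0.300 and 0.660 H2-Oa reads in WT and 0.654, 0.591 and 0.753 in KO. WT replicate 2 was the lowest in each, and WT replicate 3 lay within the range of KO in each, so that the groups overlapped. The mean log2 CPM of H2-Oa and H2-Ob minus that of H2-Aa, H2-Ab1 and H2-Eb1 was -6.37, -7.64 and -6.13 in WT and -5.99, -6.43 and -6.00 in KO. The KO mean was higher by 0.58, and by 0.11 without WT replicate 2, with overlapping groups.

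**Figure D3:**
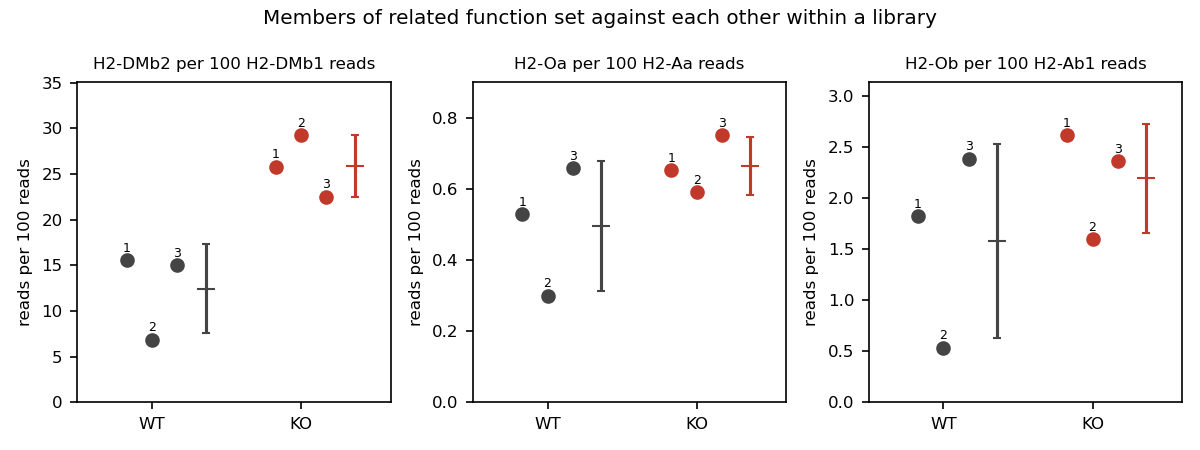
Reads of one class II gene per 100 reads of another in the same library (vertical axes, from 0), in WT (grey) and KO (red), with replicate numbers above the points and the mean with the SD over 3 libraries beside them. H2-DMb2 per 100 H2-DMb1 reads is 6.88 to 15.5 in WT and 22.5 to 29.3 in KO, whereas the ratios of H2-Oa to H2-Aa and of H2-Ob to H2-Ab1 overlap.

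On chromosome 17, 8 members lie within 223.86 kb (34092340 to 34316199), from H2-Oa to H2-Eb1. Of the 10 other genes there, 5 were tested and 0 were called. Tap1, the peptide pump subunit of class I presentation, had the highest log2 fold change (0.85 ± 0.33 SE, adjusted p = 0.462), with every KO library above WT. Psmb8, an immunoproteasome subunit a short distance away, had the lowest (-0.11 ± 0.14 SE, adjusted p = 0.789). The fitted values, none of them called, thus rose and fell from H2-Oa to H2-Ob, and H2-DMb2 lay between H2-DMa and H2-DMb1. The adjacent H2-Ab1, H2-Aa and H2-Eb1 were alike, at 0.87, 0.90 and 0.86.

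**Figure D4:**
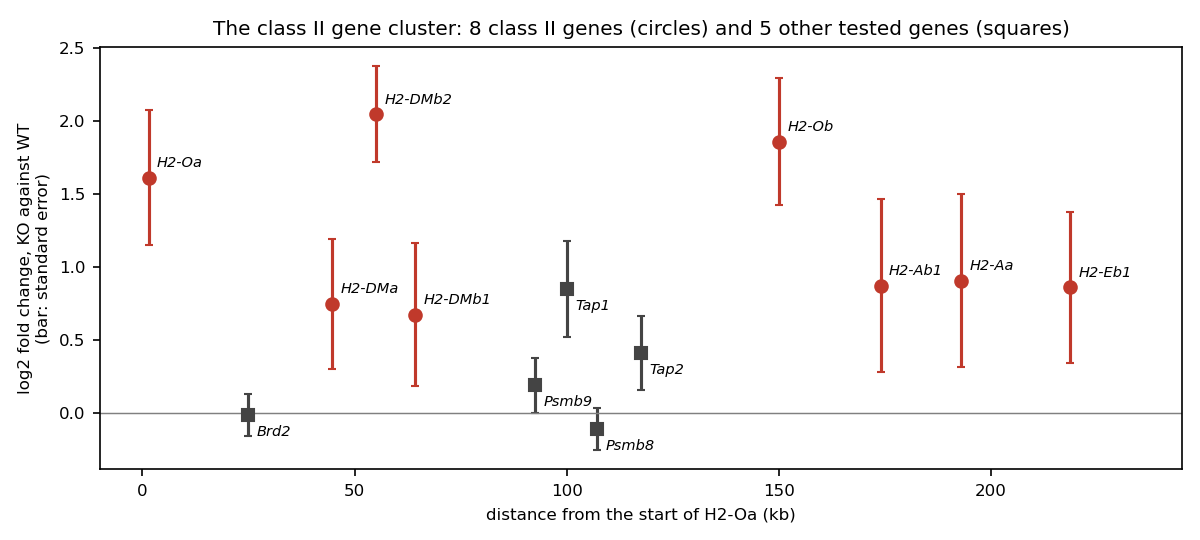
Log2 fold change of KO against WT (vertical axis, bar: standard error) by distance from the start of H2-Oa in kb (horizontal axis) for the 8 class II genes of chromosome 17 (red circles) and the 5 other tested genes between them (grey squares). H2-Oa, H2-DMb2 and H2-Ob, at 1.61, 2.04 and 1.86, stand among neighbours at or below 0.90.

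The lists of other genes of the pathway had lower medians than the members. Of 16 promoter factors and inducers of class II genes, 7 had a higher and 9 a lower fitted level in KO, and 0 were called. Their median log2 fold change was -0.01. Spib, a B cell ETS factor, had the highest value (1.01 ± 0.31 SE, adjusted p = 0.365), Irf4 the lowest (-0.77 ± 0.37 SE, adjusted p = 0.513). Every KO library lay above WT in 2 of the 16, Spib and Rfx5 (0.54 ± 0.14 SE, adjusted p = 0.299), against 8.59% of all tested genes. In 2 others, Irf4 and Irf2 (-0.26 ± 0.12 SE, adjusted p = 0.508), every KO library lay below WT. Of 9 genes of endosomal processing, 9 had a higher fitted level and 0 were called, with a median of 0.53, from 0.25 in Sppl2a, a protease that clears the remnant of the invariant chain, to 0.79 in Lgmn, an endosomal protease. Of 7 genes of transport and turnover, 6 had a higher fitted level and 0 were called, with a median of 0.47, from -0.15 in Rab7, a late endosome GTPase, to 0.82 in Cd82, a tetraspanin of class II compartments. The 5 tested of 6 costimulation genes had a median of 0.55, with Icosl, the ligand of ICOS on T cells, at 0.97 and Cd80, a ligand of CD28, at -0.81, and 0 were called. Class I presentation, with 15 genes, had a median of 0.32, 12 higher and 0 called, from -0.25 in Nlrc5, the class I counterpart of Ciita, to 0.85 in Tap1. Summed levels in WT replicates 1 to 3 were 869, 3139 and 1618 CPM for endosomal processing, against 2309 to 2842 CPM in KO. They were 691, 1606 and 1018 against 1389 to 1651 CPM for transport and turnover. For class I presentation they were 2401, 6223 and 4334 against 5339 to 5715 CPM. WT replicate 2 thus lay within or above the KO range in each, with WT replicate 1 the lowest. In costimulation all WT libraries (13.3 to 22.1 CPM) lay below KO (24.9 to 32.1 CPM).

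Marker lists of class II-bearing cells, chosen with earlier results of these data known, were set beside these values. Of 14 B cell markers, 14 had a higher fitted level in KO, and 12 had every KO library above WT, against 8.59% of all tested genes. Called were 3, against 0.109% of all tested genes in either direction: Ms4a1 (CD20), with a log2 fold change of 2.69 ± 0.24 (SE, adjusted p = 0.0188), Cd79a of the B cell receptor (2.53 ± 0.31, 0.0484) and Fcrla (2.30 ± 0.25, 0.0276). The summed level of the 14 markers was 18.8, 29.5 and 42.0 CPM in WT and 148, 136 and 135 CPM in KO. Cd79b, the highest of the 14 by the mean over all 6 libraries, was at 2.13 to 6.74 CPM in WT and 22.8 to 25.2 CPM in KO. For every 100 Cd79a reads there were 93.2, 114 and 140.0 H2-Ob reads in WT and 79.8, 65.3 and 81.9 in KO. The values for H2-Oa were 30.5, 70.2 and 41.3 in WT and 22.3, 28.6 and 27.7 in KO. Those for H2-DMb2 overlapped, at 81.4, 106 and 73.3 in WT and 57.3, 81.8 and 49.3 in KO. H2-Ob, like the B cell markers, was thus higher in every KO library, and less so than Cd79a. The part of B cells in the higher H2-DMb2, H2-Oa and H2-Ob was not tested.

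Alveolar type II markers followed the other class II genes. Their summed level was 5428, 50661 and 15635 CPM in WT and 40028, 48640 and 39333 CPM in KO, with WT replicate 1 the lowest and WT replicate 2 the highest, as in Cd74. Of 8 markers, 8 had a higher fitted level in KO and 0 were called. Their median log2 fold change was 0.75. For every 100 reads of Sftpc, which encodes surfactant protein C, there were 3.59, 2.18 and 2.72 H2-Ab1 reads in WT and 2.46, 2.07 and 2.46 in KO. The groups overlapped, and this ratio varied over a much narrower range than H2-Ab1 itself. The part of alveolar type II cells in the levels of H2-Aa, H2-Ab1, H2-Eb1, Cd74, H2-DMa and H2-DMb1 was not tested.

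**Figure D5:**
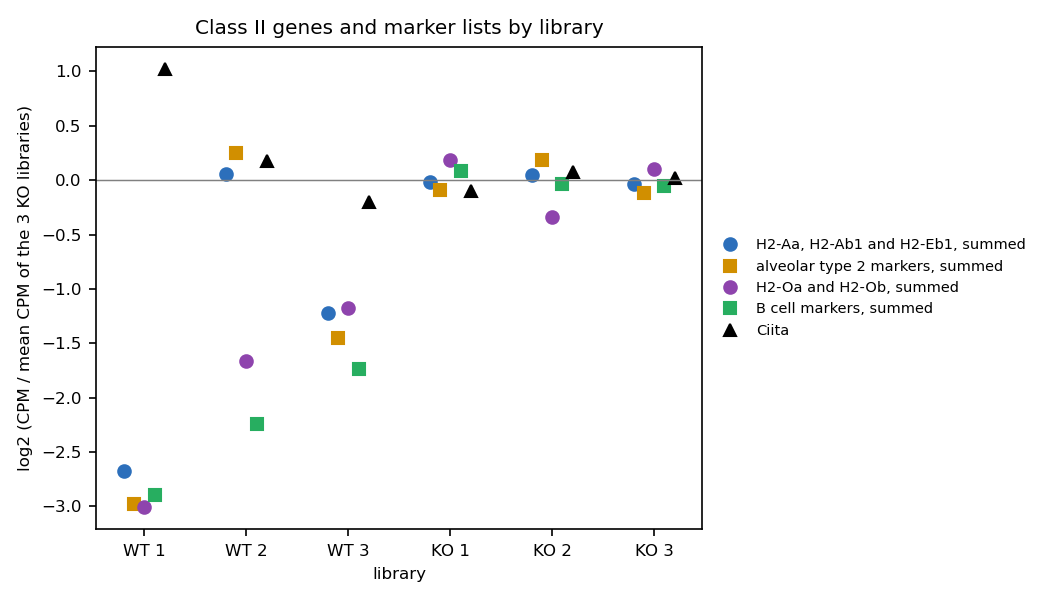
Log2 of the level in each library over the mean of the 3 KO libraries (vertical axis, CPM summed over the genes of a set) for the classical chains, H2-Oa with H2-Ob, Ciita, and the alveolar type II and B cell markers, by library (horizontal axis). The classical chains lie near the alveolar type II markers in every library, and H2-Oa with H2-Ob lie below KO in all WT libraries, as the B cell markers do.

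No gene of the other 5 marker lists was called, and the highest marker named in each is that of the highest mean CPM over all 6 libraries. Also named are genes with every KO library above WT, which held for 8.59% of all tested genes, or below WT. The 10 tested of 12 dendritic cell markers had a median log2 value of 0.15 for KO against WT, and 8 had a higher fitted level. Summed levels were 64.5, 88.8 and 81.9 CPM in WT and 95.5, 58.0 and 76.2 CPM in KO, with Zbtb46, the highest, at -0.12. Much of this sum came from Zbtb46 (25.3 to 38.2 CPM), Fscn1 (12.4 to 23.8 CPM) and Itgax (5.58 to 27.5 CPM). Flt3 was at 1.03 to 2.69 CPM. Which cells gave the reads of the genes in these lists was not tested, so a sum need not stand for its cell type. Every KO library lay above WT in Xcr1 (1.48 ± 0.50 SE, adjusted p = 0.398), on 7 to 28 counts. In Fscn1 (-0.53 ± 0.16 SE, adjusted p = 0.365) every KO library lay below WT. The 7 alveolar macrophage markers had a median of -0.18 and summed levels of 141, 324 and 299.6 CPM in WT and 368, 168 and 157 CPM in KO, and Chil3, the highest, was at -0.14. The 11 markers of interstitial macrophages and monocytes had a median of 0.38, with Plac8, the highest, at 0.18. Every KO library lay above WT in 2 of them, Ccr2 (0.88 ± 0.19 SE, adjusted p = 0.241) and Cx3cr1 (1.16 ± 0.35 SE, adjusted p = 0.365). The 11 tested of 12 T cell markers had a median of 1.01 at summed levels of 6.58 to 12.2 CPM in WT and 15.1 to 22.9 CPM in KO, with Thy1, the highest, at 0.53. Every KO library lay above WT in 5 of these 11: Cd8a (1.84), Cd3e (1.76), Cd3d (1.14), Cd247 (1.13) and Cd4 (1.01). Their standard errors were 0.36 to 0.55 and their adjusted p-values in edgeR 0.335 to 0.465. Counts were low, from 4 to 7 in WT and 15 to 19 in KO for Cd8a to 46 to 57 and 79 to 121 for Cd247. The 12 EC markers had a median of 0.10, with Erg at 0.03 and Cdh5, the highest in KO, at 0.51. Of these 12, 9 had a higher and 3 a lower fitted level. Only Kdr (0.87 ± 0.24 SE, adjusted p = 0.313) had every KO library above WT, at 93.3 to 138 CPM in WT and 161 to 264 CPM in KO.

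By their pattern over the 6 libraries, among 11627 tested genes with a mean log2 CPM of at least 1, the genes most like H2-Ab1 were Igf2r (Pearson r = 0.9996), Mrc2 (0.9995), Dpp4 (0.9990), H2-DMa (0.9988) and H2-Aa (0.9987). As many as 105 genes had r above 0.99 with H2-Ab1, Sftpc among them at 0.998, whereas Cd79a was at 0.726. The genes most like H2-Ob were St8sia4 (0.9952), Slc31a2 (0.9934), Csf1 (0.9932), Cxcr5 (0.9928), the chemokine receptor of follicular B cells, and Otulin (0.9906). The B cell gene Cd79a had r of 0.971 with H2-Ob, H2-Oa 0.942 and Sftpc 0.728. With 6 libraries that share depth and scaling, r is a description only.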

How the data were processed

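The authors deposited, for each library, whole-number counts of uniquely aligned reads per gene. Per the file headers and labels, reads of 50 bases from a stranded poly(A) library were aligned with STAR 2.5.4b to mm10 and counted with featureCounts 2.0.0 on the antisense strand over the exons of Ensembl 84 (GRCm38), without reads of several genes. Each library has a total count of its own as depth, which leaves genes near 1 CPM on few reads, and errors cover the spread of 3 libraries.

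Counts were tested in R 4.3.3 with edgeR 4.0.16 (filterByExpr, TMM, glmQLFit and glmQLFTest, genotype as the only term), with Benjamini-Hochberg adjustment over all 14625 genes, after a check on simulated data. CPM and RPKM use TMM-scaled library sizes. DESeq2 1.42.0, limma-voom 3.58.1 and other scalings and filters were alternatives. Genes got symbols from GENCODE M21, and sequences came from RefSeq (GRCm38.p6). The members and lists were chosen with earlier results of these data known. Named were all members, called or else highest and lowest genes of each pathway list, called and most abundant genes of each marker list, the 5 genes most correlated with H2-Ab1 and with H2-Ob, and the highest and lowest neighbours on chromosome 17. Among the promoter factors and inducers, and in the marker lists other than those of B cells and alveolar type II cells, genes without overlap between the groups were named too.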

Additional observations from a re-analysis of the deposited data

How the results depend on the processing

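Every member kept its direction under all alternatives run, from 19 to 20 for each gene. The members called numbered 0 in the analysis as reported, 2 with DESeq2, with the likelihood ratio test and with no filter on low counts (H2-DMb2 and H2-Ob), 3 with total counts alone as scaling (H2-Oa added), and 0 to 6 when single libraries were left out, where only leaving out WT replicate 2 gave a call. Over all genes, 16 were called as reported, 192 with DESeq2, 26 with limma-voom and with RLE scaling, 211 with the likelihood ratio test, 31 with upper-quartile scaling, 123 with total counts alone, 152 with no filter and 0 to 791 with each library left out, 0 without any of the KO libraries and 791 without WT replicate 2. With the replicate block 0 genes and 0 members were called. The replicate numbers were not taken as pairs, since the deviations of same-numbered libraries from their group means correlated at -0.08, 0.22 and 0.01, and only replicate 2 correlated best with its own number. The log2 difference of H2-Oa and H2-Ob to the classical chains was 0.58 as reported, 0.11 with log2 of CPM plus 1, and 0.11 to 0.87 when single libraries were left out. The cause of these shifts was not tested. Depth limits H2-Oa and H2-DMb2 most, with 18 to 59 and 48 to 89 counts in WT.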
